A study of Rattus norvegicus with 16 samples.

Results

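The genes of 6 families of amino acid transporters and their relatives, Slc1, Slc3, Slc6, Slc7, Slc36 and Slc38, were examined in PCCl3 cells, a differentiated line of rat thyroid follicular cells, after silencing of the transcription factor Pax8. Members were taken by name: a probe counted when the RefSeq accession given for it resolved to a rat symbol beginning with Slc1a, Slc3a, Slc6a, Slc7a, Slc36a, Slc38a or Slc43a. This gave 46 genes measured by 54 probes, out of 8899 genes that could be named on an array of 41012 probes; no probe could be named as an Slc43 gene. The name rule also took in Slc7a6os, which is not a transporter but the neighbour of Slc7a6 on the opposite strand, and Slc7a3l1, a gene similar to Slc7a3.

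All cells were PCCl3 cells in Ham's F-12 medium (Coon's modification) to which calf serum and 6 hormones were added, among them 1 nM TSH, so both controls were stimulated by TSH as the silenced cells were. The siPax8 cells carried Pax8 siRNA at 10 ng/ml, delivered with Lipofectamine 2000, and the scramble cells carried a scrambled siRNA in the same way; RNA was extracted 48 h after transfection. The other control is labelled wild type (wt). The sources differ on whether it received the transfection reagent without siRNA or was left untransfected, so silencing and transfection cannot be told apart in the comparison with wt. siPax8 RNA was hybridised against wt RNA and against scramble RNA on 2-colour arrays, in 4 biological replicates a comparison, each on 2 arrays with the dyes exchanged, which makes 16 arrays. The 2 comparisons share the siPax8 samples as the study names them, so they are given side by side and are not independent. Values are log2 ratios of siPax8 over control, averaged over the dye swap and over the probes of a gene. Total RNA of a culture cannot separate fewer cells that express a gene from less RNA per cell.

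Solute carriers of these families move amino acids and related small molecules across the plasma membrane and the lysosomal membrane. Slc1 genes encode glutamate and neutral amino acid carriers, Slc38 genes sodium-coupled carriers of glutamine and other neutral amino acids, and Slc36 genes proton-coupled carriers. Slc7 genes encode cationic amino acid carriers and the light chains of heteromeric exchangers, whose heavy chains are Slc3a1 (rBAT) and Slc3a2 (the CD98 heavy chain). Slc6 is a wider family that also holds the carriers of creatine, taurine, betaine, glycine, GABA and the monoamines. In thyroid tissue the heteromeric exchangers are known because Slc7a5 (LAT1) and Slc7a8 (LAT2) accept thyroid hormones and iodotyrosines as well as large neutral amino acids.

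The fall of Pax8 mRNA was small and uneven on these arrays. Pax8 log2 ratios over wt were -0.84, -0.57, -0.59 and -0.26 in replicates 1 to 4, with a mean of -0.56 ± 0.24 (SD, n = 4) and a limma adjusted p of 0.000472. Over scramble they were -0.58, -0.29, -0.12 and -0.01, with a mean of -0.25 ± 0.25 (adjusted p = 0.143). Replicate 4 therefore had the smallest fall of Pax8 in both comparisons, and member counts are also given without it. As a check of the cell type, all of the 12 thyroid marker genes that could be named, Pax8 itself among them, were above background on every array of the wt comparison. Of these, 10 were lower over wt, with Pax8, thyroglobulin (Tg) and the iodide carrier Slc5a5 included, while over scramble only Tg was. The anion exchanger Slc26a4, also on that list, was higher over wt (0.64 ± 0.06, adjusted p = 1.87e-06).

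Signal above background was found for part of the transporter genes, as for part of all named genes. A probe was counted as above background on an array when the scanner software flagged it so in the channel of the RNA in question. Of the 46 genes, 19 were above background on all 8 arrays in every RNA, 11 on some arrays and 16 on none. Both Slc3 genes, 5 of 8 Slc38 genes, 3 of 6 Slc1 genes, 4 of 10 Slc7 genes, 4 of 17 Slc6 genes and 1 of 3 Slc36 genes belonged to the first class. By the same rule, 4960 of all 8899 named genes were above background on all 8 arrays in every RNA. The genes above background on no array included the glial glutamate carrier Slc1a3 and the neuronal Slc1a6, Slc36a2, Slc36a3, Slc38a1, Slc38a4, Slc6a17, Slc6a18, the dopamine and serotonin carriers Slc6a3 and Slc6a4, the glycine carrier Slc6a5, the proline carrier Slc6a7, Slc7a2, Slc7a10 and Slc7a13. The log2 ratios of the 16 genes lay between -0.06 and 0.05 over wt and between -0.03 and 0.04 over scramble, which for dim probes says only that no difference was measurable.

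**Figure D1:**
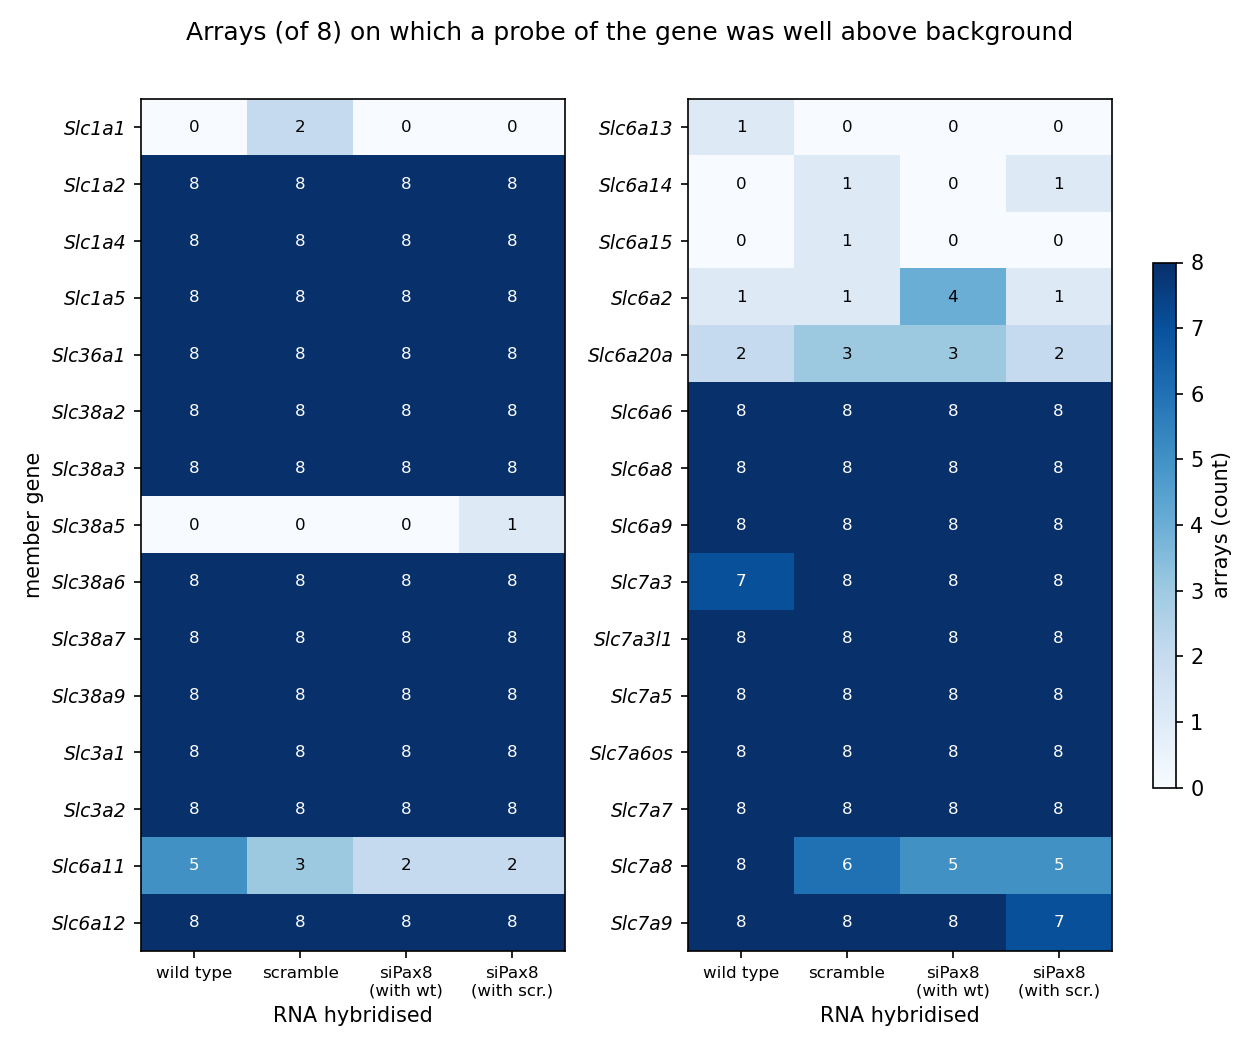
Number of arrays, out of 8, on which at least 1 probe of each gene was well above background, for the 30 genes above it on any array, by RNA hybridised (wild type, scramble, and siPax8 on the arrays shared with each). Of these, 19 genes reach 8 arrays in every column and 11 do not.

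Several of the genes with intermediate detection were close to absent. Slc1a1, Slc38a5, Slc6a13, Slc6a14 and Slc6a15 were flagged on no more than 2 arrays of any RNA, and Slc6a2, Slc6a11 and Slc6a20a on no more than 5. The other 3 were near complete: Slc7a3, a cationic amino acid carrier, missed 1 of 8 wt arrays, Slc7a9, the light chain that pairs with Slc3a1, missed 1 of 8 siPax8 arrays, and Slc7a8 was flagged on 8 wt arrays, 6 scramble arrays and 5 siPax8 arrays in each comparison.

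Over wt, 3 of the 46 genes were higher in siPax8 cells and 6 were lower; over scramble, none was higher and 1 was lower. A gene was called when every probe of it passed a limma adjusted p of 0.005 in 1 direction, with the adjustment over all 41012 probes. The same rule called 7.26% of all named genes higher over wt and 9.46% lower, so the transporter counts lay near that background. Over scramble it called 1.67% of named genes higher and 1.31% lower. Among genes above background on all arrays, 8 of 19 transporter genes (42.1%) were called over wt, against 28.6% of 4960 named genes. At an unadjusted p of 0.05, limma called 6 transporter genes higher and 9 lower over wt, and 6 higher and 6 lower over scramble. At that level 14.8% of all named genes were higher and 19.1% lower over wt, and 9.96% higher and 13.1% lower over scramble. The median log2 ratio of the 46 genes was 0.00 over wt and 0.00 over scramble, beside -0.01 and -0.00 for all named genes. Without replicate 4 the counts over wt were 3 higher and 4 lower, and those over scramble 0 and 1. The intensities as processed by the scanner software, centred on each array's median, were also used in place of the background correction and normalization applied here. With these, 1 gene was called higher over wt (Slc7a3) and 2 lower (Slc38a3 and Slc7a7), and none passed over scramble.

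**Figure D2:**
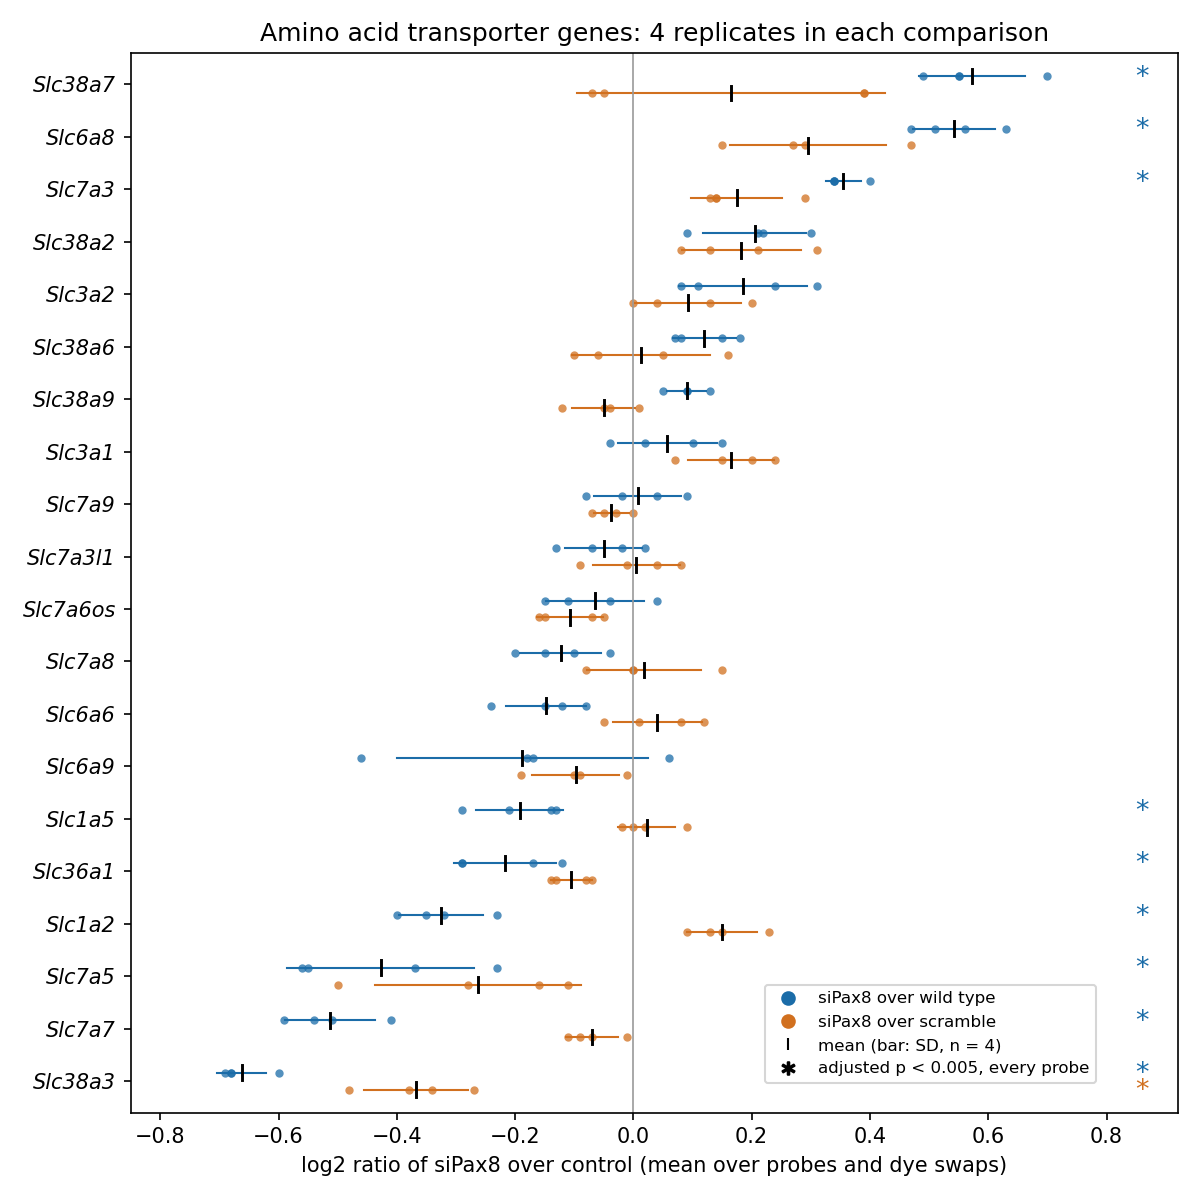
Log2 ratios of siPax8 over wild type (blue) and over scramble (orange) for the 20 genes given with full values, 1 point per replicate, with the mean (black tick) and SD (n = 4); asterisks mark genes past the threshold. Slc38a3 lies to the left of 0 in all 8 values, and Slc1a2 lies left of 0 over wild type and right of 0 over scramble, where it did not pass.

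Among the glutamine carriers, Slc38a3 fell and Slc38a7 rose. Slc38a3 encodes a system N carrier that couples glutamine and histidine to sodium and protons. Its log2 ratios over wt were -0.68, -0.69, -0.68 and -0.60, a mean of -0.66 ± 0.04 (SD, n = 4), which is 63.2% of the wt level (limma adjusted p = 1.02e-06). Over scramble they were -0.27, -0.34, -0.38 and -0.48, a mean of -0.37 ± 0.09 or 77.4% of the scramble level (adjusted p = 0.00191). It was the only transporter gene called in both comparisons, and every replicate was below 0. Without replicate 2 or 3 the call over scramble was lost (adjusted p = 0.0177 and 0.0162), with means of -0.38 and -0.36. It was also lost with siPax8 in Cy3 alone (-0.15, adjusted p = 0.0186) and with the intensities processed by the scanner software (-0.57, adjusted p = 0.0256). The call over wt was kept in every alternative tried.

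Slc38a7, a glutamine carrier of the lysosome, had log2 ratios over wt of 0.49, 0.55, 0.55 and 0.70, a mean of 0.57 ± 0.09 or 149% of the wt level (adjusted p = 8.59e-06). Over scramble the replicates split into -0.07 and -0.05 in replicates 1 and 2 and 0.39 in both replicates 3 and 4, a mean of 0.16 ± 0.26 that did not pass (adjusted p = 0.384). The scramble cells had log2 intensities of 10.35, 10.19, 9.91 and 10.05 for this probe, against 9.79, 9.55, 9.71 and 9.70 in wt cells. Every scramble value thus stood above every wt value, although the 2 controls were never on the same array.

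The other Slc38 genes above background did not pass on every probe. Slc38a2, the amino acid-regulated system A carrier, had means of 0.20 ± 0.09 over wt and 0.18 ± 0.10 over scramble, and all 8 replicate values were above 0, from 0.08 to 0.31. Only 1 of its 2 probes passed over wt, with 0.30 ± 0.10 (adjusted p = 0.000535), while the other gave 0.11 ± 0.07 (adjusted p = 0.0527). Slc38a6 has 3 probes that disagreed over wt, at 0.25 ± 0.11 (adjusted p = 0.00209), 0.12 ± 0.09 and -0.01 ± 0.14. Slc38a9, a lysosomal arginine-sensing carrier, stood at 0.09 ± 0.03 over wt (adjusted p = 0.0477) and -0.05 ± 0.06 over scramble.

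Of the heteromeric exchangers, 2 light chains fell over wt. Slc7a7, which encodes the light chain of the system that exports cationic amino acids in exchange for neutral ones, had log2 ratios of -0.54, -0.41, -0.51 and -0.59, a mean of -0.51 ± 0.08 or 70.0% of the wt level (adjusted p = 1.19e-05). Over scramble it had -0.01, -0.11, -0.09 and -0.07, a mean of -0.07 ± 0.05 (adjusted p = 0.221). Its log2 intensities were 8.07, 8.03, 8.08 and 8.08 in wt cells and 7.51, 7.66, 7.59 and 7.60 in scramble cells, so the scramble cells were close to the siPax8 cells, at 7.51, 7.55, 7.50 and 7.53 on the same arrays. Slc7a5, the light chain of LAT1, had -0.55, -0.56, -0.37 and -0.23 over wt, a mean of -0.43 ± 0.16 or 74.2% of the wt level (adjusted p = 0.000361). Over scramble it had -0.16, -0.28, -0.50 and -0.11, a mean of -0.26 ± 0.17 or 83.5% (adjusted p = 0.0439). All 8 values of Slc7a5 were below 0, and those over scramble missed the threshold.

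The heavy chains and the remaining light chains were not called. Slc3a2, the partner of Slc7a5 and Slc7a7, had 0.08, 0.31, 0.11 and 0.24 over wt (mean 0.19 ± 0.11, adjusted p = 0.0098) and 0.20, 0.13, 0.04 and 0.00 over scramble (mean 0.09 ± 0.09, adjusted p = 0.22). Over wt it passed when replicate 1 was left out (0.22, adjusted p = 0.00286). Its ratio over wt was 0.42 with siPax8 in Cy5 alone (adjusted p = 1.07e-06) but -0.05 in Cy3 alone (adjusted p = 0.75). Slc7a8 had -0.13 ± 0.07 over wt (adjusted p = 0.0227) and 0.02 ± 0.10 over scramble. The cystine and cationic pair moved little: Slc3a1 had 0.06 ± 0.08 over wt and 0.24, 0.15, 0.07 and 0.20 over scramble, a mean of 0.17 ± 0.07 (adjusted p = 0.0262), and its light chain Slc7a9 had 0.00 ± 0.07 and -0.04 ± 0.03. In a limma fit of the 8 arrays with a dye term, Slc3a1 passed over scramble without a block (adjusted p = 0.0027). It also passed with the replicate number as a block (adjusted p = 0.00417).

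Slc7a3, a cationic amino acid carrier best known from brain, rose over wt although its probe was dim. The log2 ratios were 0.40, 0.34, 0.34 and 0.34, a mean of 0.36 ± 0.03 or 128% of the wt level (adjusted p = 2.66e-05). Over scramble they were 0.14, 0.29, 0.14 and 0.13, a mean of 0.18 ± 0.08 (adjusted p = 0.0248). A limma fit of the 8 arrays with a dye term brought this below the threshold, without a block (adjusted p = 0.00276) and with the replicate block (adjusted p = 0.00429). With the intensities as processed by the scanner software, the ratio over wt was 1.14, so its size depended on the processing while its direction held. Both the background correction and the normalization differed there, and which step mattered was not tested. The similar gene Slc7a3l1 gave -0.05 ± 0.07 and 0.00 ± 0.07, and the antisense neighbour Slc7a6os -0.07 ± 0.08 and -0.11 ± 0.06.

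The promoters of 2 light chains that fell and of 2 genes that rose over wt are shown so that the sequence next to each start site can be read beside these ratios. RefSeq promoter windows of the GRCr8 assembly, 250 bases before to 50 bases after the start site, were at hand for 34 of the 46 genes and 6 of the 9 called ones. Capitals mark the motifs found, all other bases are in lower case. The windows are Slc7a7 at chr15:31835634-31835933 on the minus strand, Slc7a5 at chr19:66872363-66872662 on the minus strand, Slc38a7 at chr19:9215128-9215427 on the plus strand and Slc6a8 at chrX:156535767-156536066 on the plus strand.
Slc7a7: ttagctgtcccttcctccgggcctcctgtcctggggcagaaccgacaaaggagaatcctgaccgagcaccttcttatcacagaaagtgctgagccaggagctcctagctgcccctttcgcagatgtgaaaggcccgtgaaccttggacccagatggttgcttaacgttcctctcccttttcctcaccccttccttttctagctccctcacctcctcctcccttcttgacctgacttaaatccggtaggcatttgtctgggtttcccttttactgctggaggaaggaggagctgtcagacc
Slc7a5: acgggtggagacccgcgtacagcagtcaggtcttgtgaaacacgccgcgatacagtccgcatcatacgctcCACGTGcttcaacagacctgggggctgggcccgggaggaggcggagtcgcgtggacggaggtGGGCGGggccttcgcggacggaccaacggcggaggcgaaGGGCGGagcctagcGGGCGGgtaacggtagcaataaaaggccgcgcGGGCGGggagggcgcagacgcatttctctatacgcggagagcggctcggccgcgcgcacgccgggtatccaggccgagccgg
Slc38a7: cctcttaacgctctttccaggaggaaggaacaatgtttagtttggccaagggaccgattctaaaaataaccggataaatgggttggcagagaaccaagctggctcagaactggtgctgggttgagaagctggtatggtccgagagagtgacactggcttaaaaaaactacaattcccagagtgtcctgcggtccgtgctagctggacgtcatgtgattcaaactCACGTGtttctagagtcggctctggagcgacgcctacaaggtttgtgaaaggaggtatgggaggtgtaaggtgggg
Slc6a8: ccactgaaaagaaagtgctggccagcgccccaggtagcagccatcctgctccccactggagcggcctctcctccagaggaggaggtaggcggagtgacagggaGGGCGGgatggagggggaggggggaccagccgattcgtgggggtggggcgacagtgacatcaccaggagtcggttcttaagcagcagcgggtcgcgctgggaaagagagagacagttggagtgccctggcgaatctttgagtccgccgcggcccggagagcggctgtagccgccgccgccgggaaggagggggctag

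The motifs searched, on both strands, numbered 4. The core letters of a paired-domain motif, GCGTGAC, were in none of these 4 windows and in 2% of all 33469 RefSeq promoter windows of the rat. The amino acid response element TTGCATCA, through which Atf4 acts on amino acid-regulated genes, was also in none of them and in 0.795% of all windows. The E-box CACGTG, present in 6.42% of all windows, occurred in Slc7a5 and in Slc38a7. The GC box GGGCGG, a Sp1-type motif present in 33.1% of all windows, occurred 4 times in Slc7a5 and once in Slc6a8, and Slc7a7 held none of the 4 motifs. No motif overlapped another. These are letter matches in short windows and not measured binding sites.

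Slc6a8, the creatine carrier, was the only Slc6 gene called. Both of its probes passed over wt, at 0.47 ± 0.13 (adjusted p = 8.23e-05) and 0.61 ± 0.11 (adjusted p = 9.65e-06). The gene values were 0.56, 0.63, 0.47 and 0.51 over wt, a mean of 0.54 ± 0.07 or 146% of the wt level. Over scramble they were 0.29, 0.27, 0.15 and 0.47, a mean of 0.30 ± 0.13 or 123%, with adjusted p of 0.0241 and 0.0357 for the 2 probes. Every replicate of Slc6a8 was above 0 in both comparisons, but those over scramble missed the threshold.

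The taurine carrier Slc6a6 had -0.24, -0.15, -0.08 and -0.12 over wt (mean -0.15 ± 0.07, adjusted p = 0.00939) and 0.04 ± 0.08 over scramble. Slc6a9, a glycine carrier, had -0.46, 0.06, -0.18 and -0.17 over wt (mean -0.19 ± 0.21, adjusted p = 0.0773), a spread set mainly by replicates 1 and 2, and -0.10 ± 0.07 over scramble. Slc6a12, the betaine and GABA carrier, was above background on all arrays and stood at -0.01 ± 0.07 and -0.03 ± 0.05.

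In the Slc1 family, Slc1a2 fell over wt and was not called over scramble. Slc1a2 encodes the sodium-coupled glutamate carrier that predominates in astrocytes. Over wt its log2 ratios were -0.40, -0.32, -0.35 and -0.23, a mean of -0.32 ± 0.07 or 79.9% of the wt level (adjusted p = 0.000137). Over scramble they were 0.09, 0.15, 0.23 and 0.13, a mean of 0.15 ± 0.06 or 111% of the scramble level, which did not pass (adjusted p = 0.0267). The values over scramble depended on the dye, from 0.26 to 0.37 with siPax8 in Cy5 and from -0.11 to 0.08 in Cy3, where the mean was -0.01. All wt values of the probe, at log2 intensities of 7.74, 7.68, 7.74 and 7.67, stood above all scramble values, at 7.29, 7.39, 7.23 and 7.40. The siPax8 values, at 7.34 to 7.54 over both sets of arrays, were likewise below every wt value, although the 2 controls were never on the same array.

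Slc1a5, the exchanger ASCT2 that imports glutamine, was called lower over wt, but only 1 dye orientation showed the fall. The dye-averaged ratios were -0.29, -0.14, -0.21 and -0.13, a mean of -0.19 ± 0.07 (adjusted p = 0.00302). On the 4 arrays with siPax8 RNA in Cy3 they ran from -0.67 to -0.31, and on the 4 arrays with siPax8 RNA in Cy5 from 0.03 to 0.14. Over scramble the same split was seen, from -0.26 to -0.15 in Cy3 and from 0.18 to 0.44 in Cy5, with a dye-averaged mean of 0.02 ± 0.05. The call was also lost without replicate 2, 3 or 4, at means of -0.21, -0.19 and -0.21 (adjusted p = 0.00959, 0.0232 and 0.00865), with loess alone (-0.16, adjusted p = 0.00795) and with a normexp offset of 16 (-0.19, adjusted p = 0.00974). Its relative Slc1a4 (ASCT1) stood at 0.03 ± 0.15 over wt and 0.01 ± 0.07 over scramble.

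Slc36a1, a proton-coupled carrier of small neutral amino acids found on lysosomes, had -0.29, -0.17, -0.12 and -0.29 over wt, a mean of -0.22 ± 0.08 or 86.0% of the wt level (adjusted p = 0.00205). Over scramble it had -0.08, -0.14, -0.13 and -0.07, a mean of -0.11 ± 0.04 (adjusted p = 0.056). The call over wt was lost without replicate 2 (-0.23, adjusted p = 0.00855) and without replicate 4 (-0.19, adjusted p = 0.0151). It was also lost on the 4 arrays with siPax8 in Cy3 alone, which ran from -0.34 to 0.05 (mean -0.13, adjusted p = 0.254).

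**Figure D3:**
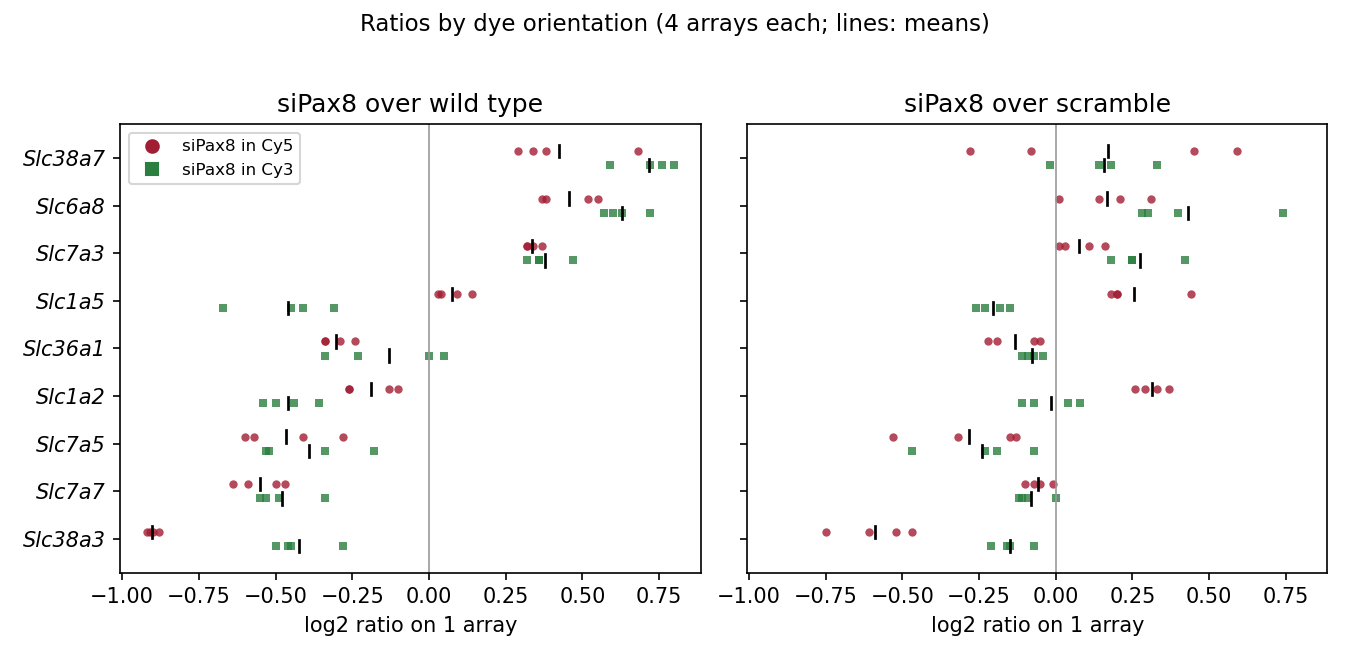
Log2 ratios on single arrays for the 9 called genes, split by the dye that labelled siPax8 RNA (circles Cy5, squares Cy3; 4 arrays each, lines are means). Slc1a5 changes sign with the dye in both panels, and Slc38a3 lies between -0.92 and -0.88 in Cy5 but between -0.50 and -0.28 in Cy3 over wild type.

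The dye mattered for other genes too, for the size of a ratio and in some cases for its sign. Slc38a3 over scramble ran from -0.75 to -0.47 with siPax8 in Cy5 and from -0.21 to -0.07 in Cy3, all below 0. Slc1a2 over wt ran from -0.26 to -0.10 in Cy5 and from -0.54 to -0.36 in Cy3. Slc3a2, which was not called, ran over wt from 0.32 to 0.49 in Cy5 and from -0.33 to 0.19 in Cy3. Over scramble Slc3a2 changed sign with the dye, from 0.19 to 0.48 in Cy5 and from -0.19 to -0.03 in Cy3. Slc38a7 over wt ran from 0.29 to 0.68 in Cy5 and from 0.59 to 0.80 in Cy3. Of the called genes, Slc7a7, Slc7a5, Slc6a8, Slc7a3, Slc38a3, Slc38a7 and Slc1a2 had the same sign over wt on all 8 arrays. Slc1a5 and Slc36a1 did not. Averaging the swap cancels a dye effect of equal size, and all calls above rest on those averages. The 16 arrays lay on 4 slides, each with 2 arrays of both comparisons; within slides, the ratios over wt ranged from -0.71 to -0.59 for Slc38a3, from -0.57 to -0.42 for Slc7a7, from 0.53 to 0.63 for Slc38a7 and from 0.49 to 0.58 for Slc6a8, so their direction held on every slide.

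Whether a ratio differed between the 2 comparisons was tested directly, since a call in only 1 of them does not show it. The difference of the ratios, wt minus scramble, equals the log2 ratio of scramble over wt as far as the siPax8 RNA was the same. Of the 46 genes, 3 had a lower ratio over wt than over scramble and none a higher one, where 2.79% and 1.78% of all named genes were called. They were Slc1a2, with a difference of -0.47 ± 0.05 (limma SE, adjusted p = 0.000125), Slc7a7 with -0.45 ± 0.05 (adjusted p = 0.000187) and Slc38a3 with -0.29 ± 0.05 (adjusted p = 0.00288). At an unadjusted p of 0.05 the difference passed for 4 genes upward and 7 downward, beside 10.8% and 12.2% of all named genes. For Slc1a2 and Slc7a7 the replicate ranges of the 2 comparisons did not overlap, and the call held with each replicate left out in turn. For Slc38a3 the ranges did not overlap either, but the call was lost without replicate 1, 2 or 3, at differences of -0.26, -0.27 and -0.29 (adjusted p = 0.0127, 0.0338 and 0.0336). Either dye orientation alone also lost it, at -0.31 in Cy5 (adjusted p = 0.0101) and -0.28 in Cy3 (adjusted p = 0.0212). So did the intensities processed by the scanner software (-0.34, adjusted p = 0.0583) and a normexp offset of 16 (-0.33, adjusted p = 0.00533). Slc38a7 had the largest positive difference among the called genes, 0.41 ± 0.11 (adjusted p = 0.0342), and it passed when same-numbered replicates were paired (adjusted p = 0.00345). The numbers were not taken to pair the comparisons, since replicates 2 and 3 correlated better with another number across them. The differences of Slc6a8 (0.25 ± 0.08, adjusted p of 0.0907 and 0.109 for its probes) and Slc7a5 (-0.17 ± 0.09, adjusted p = 0.341) did not pass.

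**Figure D4:**
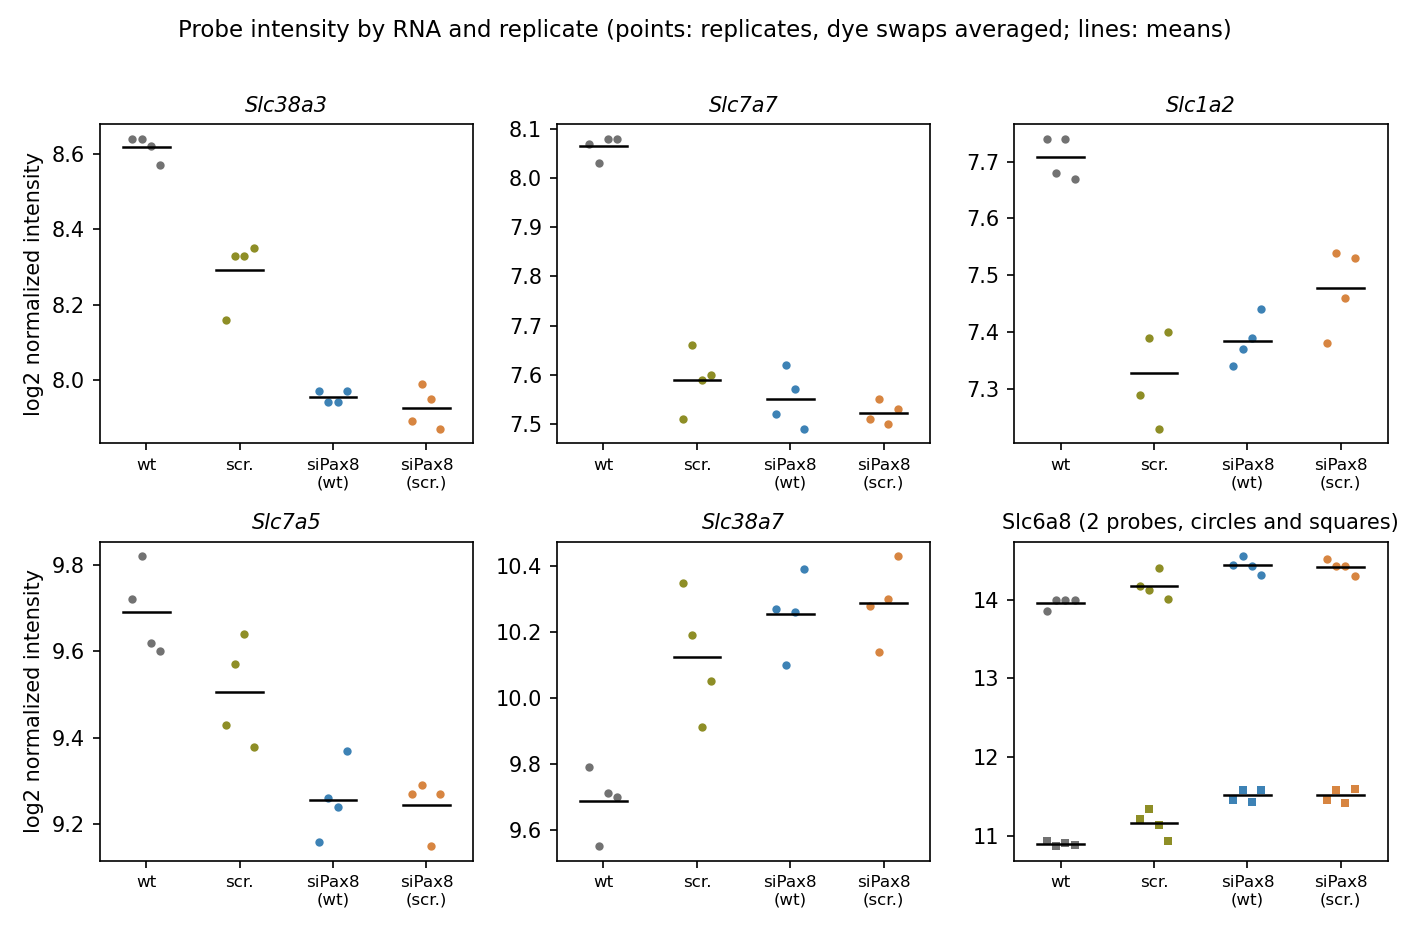
Normalized log2 intensity of the probes of 6 called genes in wild type, scramble and siPax8 RNA, the last on the arrays shared with each control; points are replicates with the dye swap averaged, lines are means, and each panel has its own axis. For Slc7a7 and Slc1a2 the scramble values sit with the siPax8 values and below all wild type values, whereas for Slc38a3 they sit between the other groups.

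Genes that use, sense or further carry amino acids were taken as context from 6 lists, each read against the shares of all named genes given above. Of 22 measured genes of the amino acid response, the programme induced by Atf4, 5 were higher and 4 lower over wt, and 1 was higher and 1 lower over scramble, with medians of -0.02 and -0.08. Ddit3, a transcription factor of that programme, was the highest of them over wt, at 1.55, 1.32, 1.18 and 1.34 (mean 1.34 ± 0.15, adjusted p = 4.24e-07), and also rose over scramble (0.39 ± 0.08, adjusted p = 0.00142). Atf3 rose over wt (0.54 ± 0.09, adjusted p = 1.24e-05) and fell over scramble (-0.29 ± 0.08, adjusted p = 0.0041). Gdf15, a stress-induced cytokine, fell over wt (-0.63 ± 0.11, adjusted p = 8.92e-06) and had -0.06 ± 0.23 over scramble. Atf4 itself (0.11 ± 0.11 and -0.02 ± 0.10) and asparagine synthetase, Asns (0.05 ± 0.13 and -0.18 ± 0.08), looked up after the other values were seen, were not called.

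Among 38 enzymes of amino acid metabolism, 2 were higher and 9 lower over wt, and 0 higher and 4 lower over scramble, with medians of -0.04 and -0.07. Aspg, an asparaginase, fell most, at -1.20, -1.35, -1.39 and -1.54 over wt (mean -1.37 ± 0.14, adjusted p = 2.76e-07) and -0.75, -0.91, -0.96 and -1.07 over scramble (mean -0.92 ± 0.13, adjusted p = 0.000188). Oat, ornithine aminotransferase, had -0.53 ± 0.13 and -0.54 ± 0.07, and Gcsh, a protein of the glycine cleavage system, -0.41 ± 0.05 and -0.27 ± 0.06, all past the threshold. Of 17 other amino acid carriers outside the 6 families, 1 was higher and 2 lower over wt, and 1 was lower over scramble. That gene was Slc25a22, a mitochondrial glutamate carrier, with -0.75 ± 0.11 over wt and -0.34 ± 0.07 over scramble (adjusted p = 3.76e-06 and 0.00187). Sfxn1, a mitochondrial serine carrier, fell over wt (-0.47 ± 0.04), and Slc25a29, a mitochondrial carrier of basic amino acids, rose (0.36 ± 0.05); over scramble they stood at -0.24 ± 0.20 and 0.14 ± 0.03 and did not pass.

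Of 15 measured genes of amino acid sensing by mTORC1, the kinase complex that reads amino acid supply at the lysosome, 4 were higher and 1 lower over wt and none passed over scramble (range -0.19 to 0.12). The 3 with the smallest p were Lamtor1, a Ragulator subunit (0.42 ± 0.04), Flcn, the folliculin gene (0.52 ± 0.10), and Rragc, a Rag GTPase (0.30 ± 0.13). Over scramble these stood at 0.01 ± 0.16, -0.02 ± 0.17 and 0.12 ± 0.17. Of 19 genes of glutathione and cystine metabolism, 2 were higher and 4 lower over wt and none passed over scramble. Nfe2l2, the antioxidant transcription factor, rose over wt (0.66 ± 0.13), and Ggt1, which breaks down glutathione outside the cell, fell (-0.29 ± 0.09). Cdo1, cysteine dioxygenase, was called higher over wt at 0.27 ± 0.08 (limma adjusted p = 0.000551). Its probe was not well above background on any wt array, so the size of this rise is uncertain. Of 13 aminoacyl-tRNA synthetases, 1 was higher over wt, Eprs1 at 0.21 ± 0.09 (-0.17 ± 0.07 over scramble, adjusted p = 0.0218, not called), and 1 higher over scramble, Qars1 at 0.42 ± 0.08, named after its value was seen. Wars1 and Sars1, which followed Eprs1 by p, gave 0.18 ± 0.11 and 0.24 ± 0.19 over wt and were not called.

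**Figure D5:**
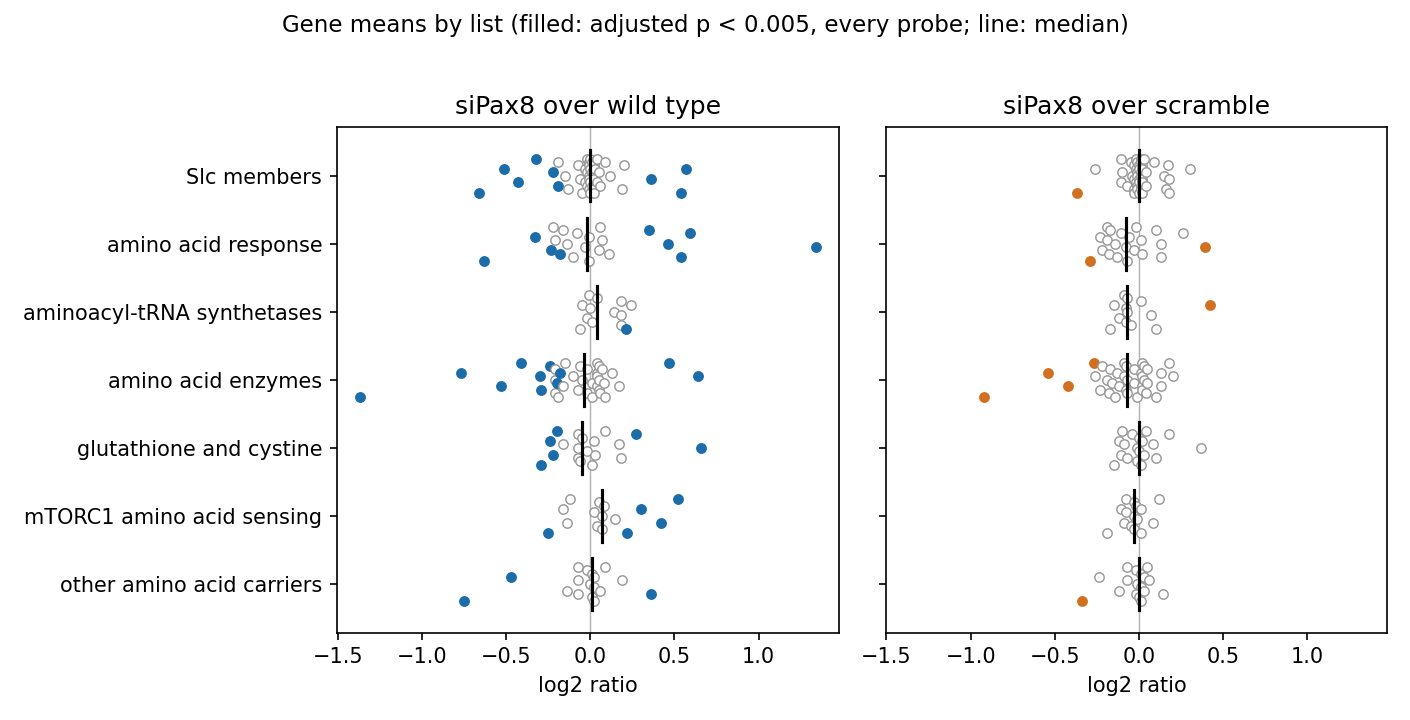
Mean log2 ratio of each gene over wild type (left) and over scramble (right) for the 46 transporter genes and 6 lists of related genes; filled points passed the threshold and vertical lines are medians. The medians of the lists lie between -0.05 and 0.07 over wild type and between -0.08 and 0.00 over scramble, while single genes reach -1.37 and 1.34.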

How the data were processed

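PCCl3 RNA was measured on 16 rat 2-colour Agilent arrays, 4 biological replicates a comparison with dye swaps, grouped by the labels; where nothing says that cultures were separate, p-values measure only the spread between these samples. Per the file headers, the authors' deposited files hold spot intensities from Feature Extraction 10.1.1.1 and a log10 ratio of Cy5 over Cy3. The authors also deposited a table of normalized log2 ratios. Its direction (control over siPax8) was found by correlation with the normalized log2 ratios of siPax8 over control computed here (-0.999 to -0.993). The submitters' notes name limma.

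In R 4.3.3 with limma 3.58.1, mean and background intensities were corrected by normexp (offset 50, which shrinks ratios of dim probes), loess-normalized within arrays with weight 0 for control spots, and quantile-normalized between arrays. Spots flagged as outliers (171 to 308 an array) were dropped, spots of a probe and dye swaps were averaged, and each comparison was fitted with lmFit and eBayes on 4 values, with Benjamini-Hochberg adjustment over 41012 probes and a threshold of 0.005. The difference of the comparisons was fitted on 8 values. The fits were tested on simulated data. A share of 52 to 60.8% of spots was above background in siPax8 channels and 53.7 to 59.9% in control channels; the number of arrays limits the precision. Accessions named 10768 probes through a RefSeq table and left 30244 unnamed.

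Full values are given for genes past the threshold in either comparison or the difference, filled to 20 by smallest adjusted p among genes above background on at least 4 of 8 arrays; of each list, genes past it in both comparisons or, with fewer than 3, the 3 smallest p over wt. The genes and lists were chosen with earlier results of these data known. Alternatives covered background, normalization, dye, blocks, probes, thresholds and left-out replicates. The name of 1 gene above background on no array is not reported here.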

Additional observations from a re-analysis of the deposited data

Results flagged for a closer look

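Of 40 groups of 4 replicate values, 3 held a value far from the others by Dixon's criterion, where chance gives about 1 in 20. For Slc38a3 over wt, replicate 4 at -0.60 stood apart from -0.68 to -0.69 (gap over range 0.865). For Slc7a3, replicate 1 stood apart over wt at 0.40 (0.925) and replicate 2 over scramble at 0.29 (0.922).

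The ratio over wt differed from the ratio over scramble, by limma's test of the difference, for Slc1a2 (-0.47, adjusted p = 0.000125), Slc7a7 (-0.45, adjusted p = 0.000187) and Slc38a3 (-0.29, adjusted p = 0.00288).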

How the results depend on the processing

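Of 882 values of single genes under 18 alternatives, 811 kept their side of the threshold, 26 lost it, 43 gained it, and 2 of Slc1a5 changed sign with a call on 1 side: 0.08 over wt with siPax8 in Cy5 alone and -0.21 over scramble with siPax8 in Cy3 alone. Of the 811, 10 that were called under neither setting changed sign, among them Slc1a2 over scramble (0.15 to -0.01) and Slc3a2 over wt (0.19 to -0.05) and over scramble (0.09 to -0.10), all in Cy3 alone. The calls of Slc38a3, Slc7a7 and Slc7a3 over wt and the Slc1a2 difference held under all 18. The 3 genes higher over wt became 1 with processed intensities and 5 with Cy5 alone, with 1 probe sufficing or at an adjusted p of 0.05; the 6 lower became 2 with processed intensities. Over scramble, 0 higher became 3 with Cy3 alone, a dye term or a slide block, 2 with the replicate block, 1 in a shared fit and 4 at 0.05. The 1 lower became 0 with processed intensities and 2 with a dye term, a slide block or 0.05. For the difference, 0 above became 1 with the authors' table, Cy3 alone, a dye term or the replicate block and 3 at 0.05, and 3 below became 1 with processed intensities and 5 at 0.05. The median over wt, 0.002, became -0.030 with processed intensities, -0.021 without dim probes and -0.022 with Cy3 alone; over scramble, 0.004 became 0.012, 0.012 and -0.016. With each replicate left out in turn, counts over wt were 3 to 4 higher and 4 to 6 lower, over scramble 0 to 0 and 0 to 1, for the difference 0 to 0 and 2 to 3, and medians -0.006 to 0.004 and -0.000 to 0.002. The cause of these shifts was not tested. Over all named genes, calls over scramble were 149 higher and 117 lower, but 8 and 0 with processed intensities and 132 and 62 with loess alone; over wt 646 and 842, 187 and 167, and 749 and 761. Genes above background numbered 30 on any array, 24 on at least 4 of 8 and 22 on all 8 of a group. Same-numbered dye swaps correlated at 0.119 to 0.58, and same-numbered replicates of the 2 comparisons at 0.0449 to 0.566. Across the comparisons, replicates 2 and 3 correlated less with their own number (0.175 and 0.0449) than with another (0.408 at best). The numbers were therefore not taken to pair the comparisons. The dye swap of replicate 2 over wt also matched another number better (0.203 against 0.119), but was averaged by number. The replicate block, fitted with a dye term, added Slc7a3 and Slc3a1 over scramble, as the dye term did without a block. Pairing by replicate number added the Slc38a7 difference. Signal over background limits the 16 genes above it on no array.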
